A study of Mus musculus with 8 samples.

Results

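The genes of the p53 pathway were examined in BMEL cells, a bipotential cell line derived from mouse embryonic liver, 48 h after transfection with a GRHL2 plasmid or with a control plasmid. The list comprised p53 and its family, its inhibitors and the targets that carry out its effects, 34 symbols in all, and 33 of them were found by symbol among the 18671 genes of the expression table. Trp63 was not analysed here. The study comprised 8 RNA-seq samples, 4 in each group, with replicates numbered 1 to 4 in each group and described by the study as independent biological replicates. The GRHL2 plasmid (pGRHL2 in the labels) carried the human GRHL2 cDNA fused to a Flag tag under the EEF1A1 promoter together with enhanced green fluorescent protein, and control cells received pcDNA3. The plasmids thus differ by more than GRHL2, and the part of any change that comes from GRHL2 and the part that comes from the rest of the vector cannot be told apart. All cells were grown on type I collagen with serum, IGFII, EGF and insulin, and no agent that damages DNA is named in the labels.

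The transcription factor p53, encoded by Trp53, is kept low in unstressed cells because MDM2, the product of one of its own target genes, marks it for degradation. When DNA damage or another stress frees p53 from MDM2, it binds response elements and raises the transcription of genes that stop the cell cycle, repair DNA or trigger apoptosis. Most control of p53 is exerted on the protein, so that the mRNA levels of its targets, and not that of Trp53, are commonly read as its output. In the liver, p53 and its target p21 are best known for restraining hepatocyte proliferation after damage and during regeneration.

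Values are log2 normalized expression, taken from the methods to be the regularized logarithm (rlog) of read counts less the log2 of transcript length. If so, levels can be compared between genes and a difference of 1 is a ratio of 2. The rlog shrinks differences of genes with few reads, and the depth of each library is unknown. Mouse Grhl2 was at 4.68, 4.57, 4.42 and 4.44 in control replicates 1 to 4 and at 6.30, 6.96, 5.65 and 6.05 in GRHL2 replicates 1 to 4, and whether reads of the human cDNA count towards this row was not tested. Of 11 liver progenitor and biliary markers, Krt8, Krt18, Krt19 and Hnf4a were high in control cells (15.31, 14.76, 15.05 and 11.16), and Afp (8.32) was above Alb (5.25), which lay below the table's median level of 6.44. In GRHL2 samples Krt7 (log2 fold change 0.44, limma adjusted p = 0.00201) and Foxa1 (0.21, adjusted p = 0.0320) of this list were higher and Afp (-0.21, adjusted p = 0.0124) was lower (10.5% and 5.91% of all genes were higher and lower), with 5 higher and 1 lower once the replicate block was added (18.2% and 13.9%). The summed linear level of the 11 markers was 104833 to 119361 in control and 119584 to 132630 in GRHL2 samples, and its part in the results was not tested. Control levels of the blood markers ran from 0.79 to 6.08 (Ptprc 0.90, Cd68 6.08) and those of the endothelial markers from 1.23 (Cdh5) to 3.33, with 3 of 6 and 4 of 5 below the 25th percentile of the table. By limma none of the 6 and 5 in these lists was called. At an unadjusted p under 0.05, 2 blood markers were higher, and 2 endothelial markers were higher and 1 lower (18.4% and 12.7% of all genes were higher and lower). With the replicate block, 1 blood marker was higher and 1 lower, and 2 endothelial markers were higher (18.2% and 13.9%). The summed linear levels of these lists were 102 to 113 in control and 114 to 119 in GRHL2 samples for blood, and 23.7 to 24.3 and 23.3 to 25.3 for endothelium. Of 7 stellate and mesothelial markers, Msln, Reln and Pdgfrb were called higher (10.5% of all genes), while Pdgfrb (-0.23) and Acta2 (0.80) were near the lower end and Msln (13.20) was abundant. The sum of these 7, nearly all of it Msln, was 9043 to 9682 in control and 10890 to 11976 in GRHL2 samples, and its part in the results was not tested. As the samples are bulk cultures, fewer cells of a kind and less RNA per cell cannot be told apart.

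Of the 33 p53 pathway genes, 16 fell, 2 rose and 15 did not pass the test in cells transfected with GRHL2. With limma and Benjamini-Hochberg adjustment over all 18671 genes, 16 of the 33 genes were called lower at an adjusted p under 0.05, against a background of 5.91% of all genes called lower, and 2 were called higher, against 10.5% (16.4% of all genes were called in either direction). This fit did not use the replicate numbers. With them as a block, 21 were called lower and 3 higher (13.9% and 18.2% of all genes). The median log2 fold change was -0.23 over the 33 genes and 0.0066 over all genes. In 19 genes the 4 GRHL2 samples lay below all 4 control samples, where 9.47% of all genes did so, and in 2 genes they lay above, where 14.3% did (23.8% of all genes in either direction). The inhibitor gene Mdm2 and the kinase gene Plk2 changed the most, to 0.465 and 0.453 of the control level, while Trp53 itself was at 0.950 of it and was not called. Of the 16 lowered genes, 10 were below 0.75 of the control level and 6 were between 0.75 and 1.

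**Figure D1:**
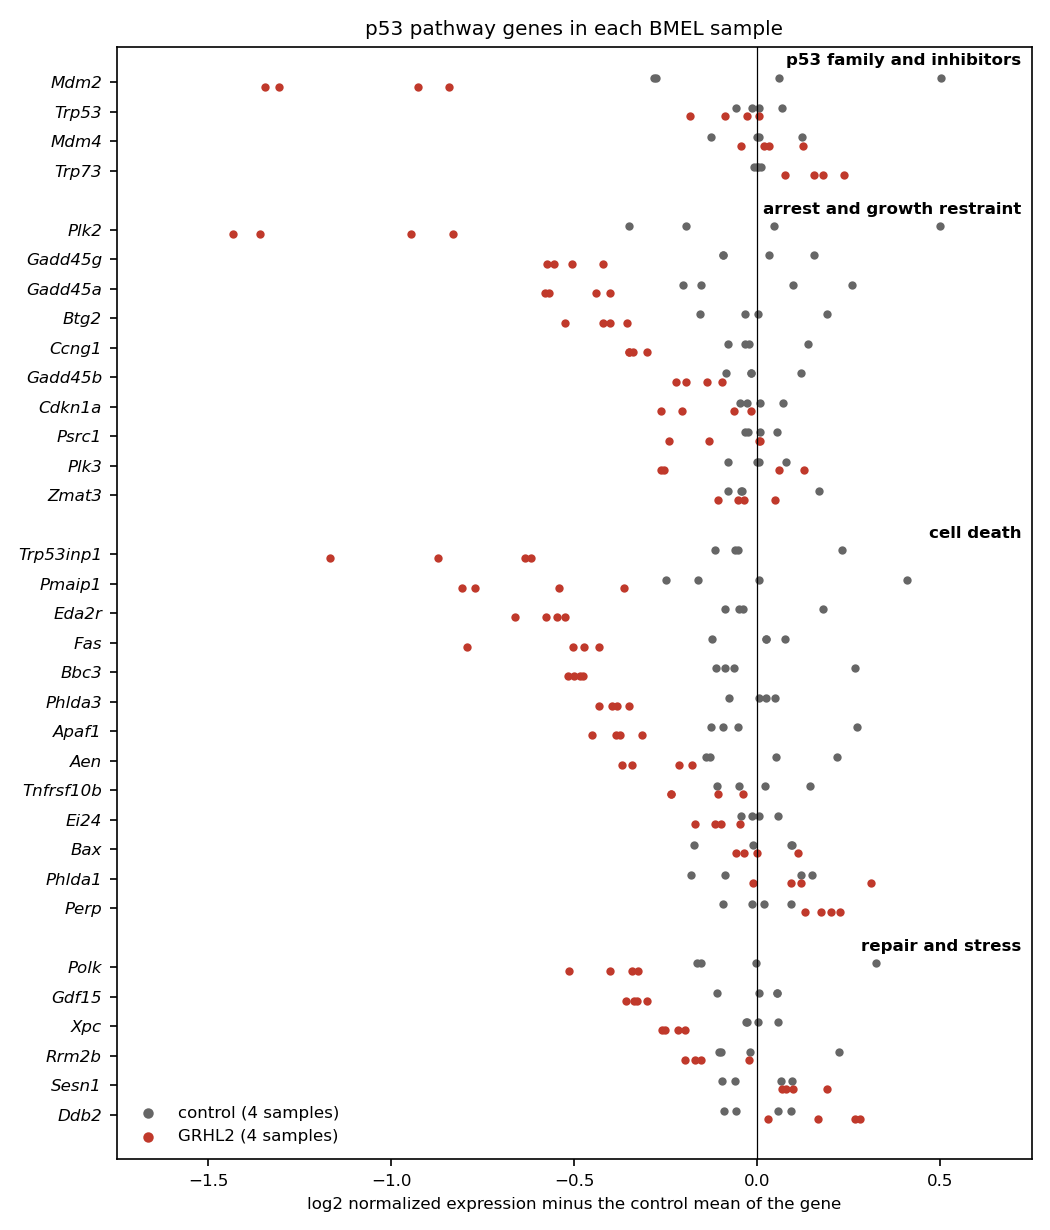
Each row is one p53 pathway gene, grouped by role, and each point one sample (grey, 4 control samples; red, 4 GRHL2 samples), plotted as log2 normalized expression minus the mean of the gene's control samples. The red points of 19 genes lie wholly to the left of the grey points, most widely for Mdm2, Plk2 and Trp53inp1, and those of Trp73 and Perp lie wholly to the right.

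The start regions of the genes are shown because the list is defined by regulation through p53 and because several members moved together. RefSeq windows (GRCm38.p6) from 250 bases before to 50 bases after a transcription start were found for 24 of the 33 genes. The p53 decamer searched for is a part of the p53 response element and not a whole element. It is its own reverse complement, so that one search reads both strands. It was found in the windows of 10 of these 24 genes (Trp53, Mdm2, Cdkn1a, Ccng1, Gadd45a, Bax, Aen, Ei24, Polk and Sesn1) and of 9.55% of all 27025 genes with a window. Among the 13 lowered genes with a window, the decamer was in 4, namely Mdm2, Ccng1, Gadd45a and Polk. The other genes with a match, Trp53, Cdkn1a, Bax, Aen, Ei24 and Sesn1, were not called. The matched windows of Polk and Sesn1 lay inside these genes, away from their annotated 5′ ends. The 4 windows printed are those of the most lowered pair, Mdm2 and Plk2, of Ccng1, the member with the highest control mean, and of Cdkn1a, which was not called. Capitals mark the decamer in Mdm2, Ccng1 and Cdkn1a, and the cAMP response element TGACGTCA in Plk2, all written 5′ to 3′ on the strand of the gene.
Mdm2, chr10:117710709-117711008, minus strand: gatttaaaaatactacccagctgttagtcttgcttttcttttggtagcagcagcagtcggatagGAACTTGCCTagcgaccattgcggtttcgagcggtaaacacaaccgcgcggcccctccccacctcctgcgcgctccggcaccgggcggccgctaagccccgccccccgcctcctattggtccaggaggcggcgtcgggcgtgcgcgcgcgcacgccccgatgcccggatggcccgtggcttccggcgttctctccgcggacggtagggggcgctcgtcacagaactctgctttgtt
Plk2, chr13:110394794-110395093, plus strand: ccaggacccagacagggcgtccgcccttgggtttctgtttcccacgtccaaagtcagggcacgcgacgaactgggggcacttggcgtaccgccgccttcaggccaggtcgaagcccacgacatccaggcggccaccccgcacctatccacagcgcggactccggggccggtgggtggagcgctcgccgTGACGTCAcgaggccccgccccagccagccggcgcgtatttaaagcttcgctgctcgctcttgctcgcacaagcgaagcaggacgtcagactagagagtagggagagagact
Ccng1, chr11:40755237-40755536, minus strand: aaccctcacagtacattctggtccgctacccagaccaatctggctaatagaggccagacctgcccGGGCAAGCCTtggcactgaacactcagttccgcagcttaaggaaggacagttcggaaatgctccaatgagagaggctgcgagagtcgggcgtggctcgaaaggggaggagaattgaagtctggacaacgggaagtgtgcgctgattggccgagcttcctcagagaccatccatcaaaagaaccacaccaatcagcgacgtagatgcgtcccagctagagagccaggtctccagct
Cdkn1a, chr17:29090729-29091028, plus strand: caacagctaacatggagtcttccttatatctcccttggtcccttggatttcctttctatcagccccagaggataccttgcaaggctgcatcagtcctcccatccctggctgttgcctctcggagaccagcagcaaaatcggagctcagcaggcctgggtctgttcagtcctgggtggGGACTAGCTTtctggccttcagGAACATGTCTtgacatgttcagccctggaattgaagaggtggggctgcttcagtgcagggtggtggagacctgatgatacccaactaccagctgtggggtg

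The match in Mdm2 began 186 bases before the start and that in Ccng1 185 bases before it. Cdkn1a had 2 exact matches of the decamer in its window, beginning 73 and 51 bases before that start and separated by 12 bases. Near matches were not searched for. The window of Plk2 held no decamer, and its TGACGTCA element, which is also its own reverse complement, began 62 bases before the start. This element was found in 2 of the 24 genes, Plk2 and Btg2, and in 2.03% of all genes with a window. The composite element of ATF4 and CHOP, searched as TGATGNAA on both strands, was found in Gadd45g and Polk, and in 4.51% of all genes. The element of Grainyhead factors, searched as AACCNGTT on both strands, was in none of the 24 genes and in 2.35% of all genes. A match here is a stretch of letters and not evidence of binding, and no match says only that these letters are not in this window.

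Of the 4 genes of the p53 family and its inhibitors, Mdm2 fell, Trp73 rose slightly and Trp53 and Mdm4 were not called. Trp53 (ENSMUSG00000059552; GRCm38 chromosome 11, 69580359 to 69591873, plus strand) was at 11.57, 11.51, 11.49 and 11.45 in control replicates 1 to 4 and at 11.51, 11.48, 11.41 and 11.32 in the GRHL2 replicates. The groups overlapped, although each GRHL2 sample was below the control sample of the same number, and the log2 fold change of -0.074 (95% interval -0.19 to 0.041) was not called (adjusted p = 0.366, limma; 0.0976 with the replicate number as a block). Mdm2 (ENSMUSG00000020184; GRCm38 chromosome 10, 117688875 to 117710758, minus strand), which encodes the ubiquitin ligase that degrades p53, was at 12.35, 12.79, 12.01 and 12.01 in control samples and at 11.36, 11.45, 10.94 and 10.98 in GRHL2 samples. Every GRHL2 sample was below every control sample, and the log2 fold change was -1.11 ± 0.18 (SE; limma adjusted p = 0.00303). Mdm4, whose product binds p53 and blocks its activation domain without degrading it, had means of 9.21 ± 0.10 in control and 9.25 ± 0.070 in GRHL2 samples (SD, n = 4 each), and was not called (adjusted p = 0.770, limma). Trp73, which encodes the related factor p73, was close to the lower end of the table, at 1.31, 1.30, 1.31 and 1.30 in control and 1.49, 1.54, 1.38 and 1.46 in GRHL2 samples. Its 4 GRHL2 samples were above all control samples, a log2 fold change of 0.16 (adjusted p = 0.00540, limma) that left it near the lower end.

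**Figure D2:**
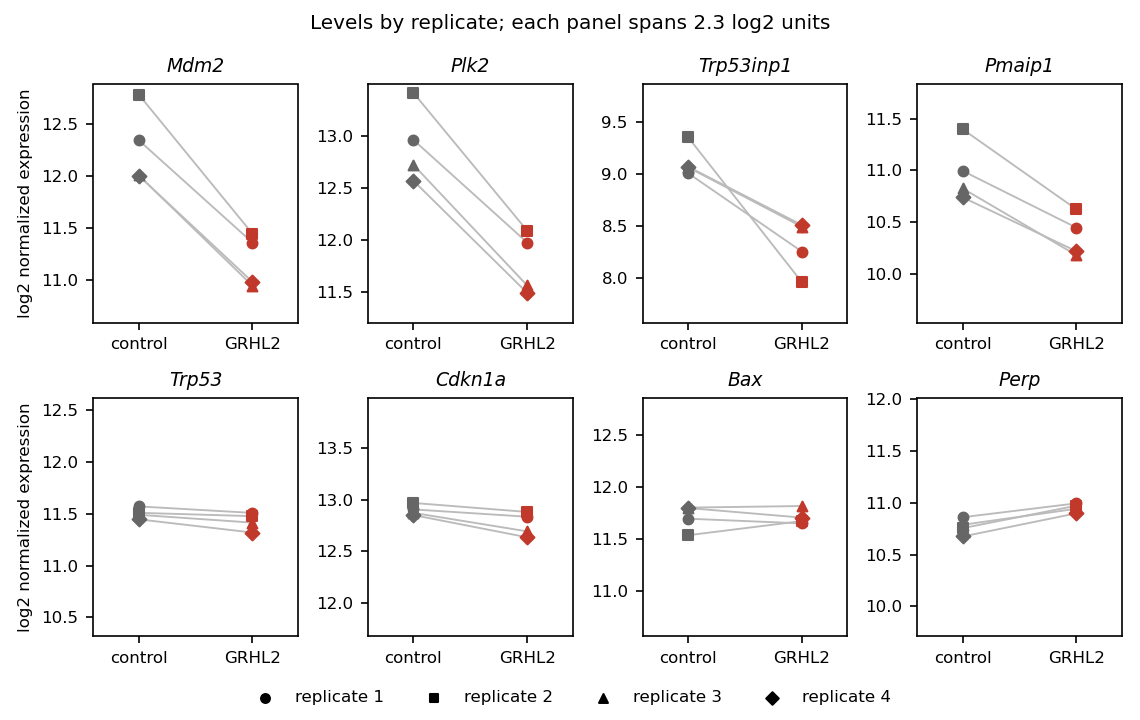
Log2 normalized expression of 8 genes in control and GRHL2 samples, with grey lines joining samples of the same replicate number and every panel spanning the same number of log2 units. In Mdm2, Plk2 and Pmaip1 every line falls, by the most in replicate 2, and replicate 2 is highest in both groups. The lines of Cdkn1a fall by 0.071 to 0.21, those of Perp rise by 0.13 to 0.22 and those of Bax run in both directions.

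Of the 10 genes that restrain the cell cycle, 5 were called lower and none higher (5.91% and 10.5% of all genes), and all 10 had log2 fold changes below 0, from -1.14 to -0.037. Plk2 (ENSMUSG00000021701; GRCm38 chromosome 13, 110395046 to 110400844, plus strand), a Polo-like kinase induced by p53 that acts on centrioles and at the S-phase checkpoint, was at 12.97, 13.42, 12.73 and 12.57 in control samples and at 11.98, 12.09, 11.56 and 11.49 in GRHL2 samples. The groups did not overlap, and the log2 fold change was -1.14 ± 0.19 (SE; limma adjusted p = 0.00333), the largest fall among the 33 genes. Its relative Plk3 was at 6.81 ± 0.065 in control and 6.73 ± 0.21 in GRHL2 samples (SD, n = 4 each), with overlapping groups (log2 fold change -0.083, 95% interval -0.29 to 0.12). Ccng1, which encodes cyclin G1, a feedback regulator that recruits phosphatase to MDM2, had the highest control mean of the members. It was at 13.03, 13.19, 13.02 and 12.97 in control samples and at 12.71, 12.70, 12.75 and 12.70 in GRHL2 samples, or 0.792 of the control level (adjusted p = 0.00181, limma). Btg2, an antiproliferative cofactor of mRNA deadenylation, was at 8.34, 8.69, 8.46 and 8.50 in control samples and at 7.97, 8.07, 8.14 and 8.09 in GRHL2 samples. Its groups did not overlap, and its log2 fold change was -0.43 (adjusted p = 0.00411, limma).

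The 3 Gadd45 genes encode small stress proteins that bind p21 and PCNA and activate stress kinases. Gadd45a, the member best known as a p53 target, was at 7.998, 8.16, 7.70 and 7.75 in control samples and at 7.46, 7.33, 7.32 and 7.50 in GRHL2 samples. Gadd45g was at 10.01, 10.26, 10.14 and 10.01 in control samples and at 9.60, 9.68, 9.55 and 9.53 in GRHL2 samples. Gadd45b was at 10.19, 10.12, 10.32 and 10.19 in control samples and at 9.98, 10.01, 10.11 and 10.07 in GRHL2 samples. In each of them every GRHL2 sample was below every control sample, with log2 fold changes of -0.50 (adjusted p = 0.00871, limma) for Gadd45a, -0.51 (adjusted p = 0.000921) for Gadd45g and -0.16 (adjusted p = 0.0691, or 0.00868 with the replicate block) for Gadd45b. Of the exonic bases of Gadd45a, 19.1% are shared with E230016M11Rik on the opposite strand, and reads there cannot be told apart in counts made without regard to strand.

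Cdkn1a (ENSMUSG00000023067; GRCm38 chromosome 17, 29090976 to 29100727, plus strand) encodes p21, the CDK inhibitor through which p53 holds cells in G1, and its log2 fold change was nearer to 0 than those of the 5 lowered genes. It was at 12.91, 12.97, 12.87 and 12.85 in control samples and at 12.84, 12.88, 12.69 and 12.64 in GRHL2 samples. GRHL2 replicate 2 lay within the range of the control samples and the other GRHL2 samples below it. The log2 fold change was -0.14 (95% interval -0.27 to -0.0078), with an adjusted p of 0.139 (limma), or 0.0117 with the replicate block. Psrc1, a gene of a microtubule-binding spindle protein, and Zmat3, which encodes an RNA-binding protein induced by p53, had log2 fold changes of -0.090 (95% interval -0.23 to 0.048) and -0.037 (-0.18 to 0.10) and were not called.

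Among the 13 genes of cell death, 7 were called lower and 1 higher (5.91% and 10.5% of all genes), and the falls included genes of the mitochondrial route and the death receptor gene Fas. Pmaip1 and Bbc3 encode NOXA and PUMA, the BH3-only proteins that neutralize survival factors of the BCL2 family. Pmaip1 was at 10.99, 11.40, 10.83 and 10.74 in control samples and at 10.45, 10.62, 10.18 and 10.22 in GRHL2 samples. Bbc3 was at 9.29, 9.66, 9.31 and 9.33 in control samples and at 8.91, 8.90, 8.92 and 8.88 in GRHL2 samples. Neither gene had overlapping groups, with log2 fold changes of -0.62 ± 0.14 (SE; limma adjusted p = 0.0169) and -0.49 ± 0.080 (adjusted p = 0.00293). The GRHL2 samples of Bbc3 lay within a narrow range, and control replicate 2 stood above the other control samples. Apaf1, whose product assembles the apoptosome once cytochrome c is released, was at 8.96, 9.28, 8.92 and 8.88 in control samples and at 8.70, 8.63, 8.56 and 8.62 in GRHL2 samples, or 0.767 of the control level (adjusted p = 0.0134, limma). Bax, the effector that opens the outer mitochondrial membrane, was at 11.69, 11.53, 11.80 and 11.80 in control samples and at 11.65, 11.67, 11.82 and 11.70 in GRHL2 samples, with a log2 fold change of 0.0034 (95% interval -0.14 to 0.15), and was not called. Of its exonic bases, 12.2% are shared with another gene model on the same strand.

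Of the 3 receptors of the TNF receptor superfamily, Fas and Eda2r fell, and Tnfrsf10b was called with the replicate block but not without it. Fas, the receptor of FAS ligand, was at 7.52, 7.37, 7.52 and 7.57 in control samples and at 7.02, 6.70, 7.06 and 6.99 in GRHL2 samples. Eda2r, the X-linked receptor of ectodysplasin A2, was at 9.25, 9.47, 9.24 and 9.20 in control samples and at 8.74, 8.62, 8.71 and 8.76 in GRHL2 samples. Both had GRHL2 samples wholly below the control samples, at 0.683 (adjusted p = 0.00185, limma) and 0.670 (adjusted p = 0.000482) of the control level. Tnfrsf10b, the receptor of TRAIL, was at 9.09, 9.21, 8.96 and 9.02 in control samples and at 8.96, 9.03, 8.83 and 8.83 in GRHL2 samples, with overlapping groups. Its log2 fold change of -0.15 had an adjusted p of 0.156 (limma), or 0.0104 with the replicate block.

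Other effectors of death moved in both directions. Trp53inp1 (ENSMUSG00000028211; GRCm38 chromosome 4, 11156431 to 11174379, plus strand), which encodes a stress protein that helps p53 to be phosphorylated and takes part in autophagy, was at 9.01, 9.36, 9.06 and 9.07 in control samples and at 8.25, 7.96, 8.49 and 8.51 in GRHL2 samples. The groups did not overlap, and the log2 fold change of -0.82 ± 0.12 (SE; limma adjusted p = 0.00207) was the third largest fall; it was -1.40 in replicate 2 and -0.56 in replicate 4. Phlda3, whose product keeps AKT from the membrane, was at 11.47, 11.37, 11.50 and 11.45 in control samples and at 11.10, 11.01, 11.05 and 11.07 in GRHL2 samples, or 0.763 of the control level, with the smallest adjusted p of the list (0.000440, limma). Aen, an exonuclease gene induced by p53, was at 10.24, 10.40, 10.06 and 10.05 in control samples and at 10.01, 9.97, 9.82 and 9.85 in GRHL2 samples. Its groups did not overlap, and its adjusted p was 0.0509 (limma) or 0.00196 with the replicate block, for a log2 fold change of -0.28. Perp, a desmosome-associated membrane protein that p53 induces in dying cells and p63 in stratified epithelia, went the other way, at 10.86, 10.75, 10.79 and 10.67 in control samples and 10.99, 10.97, 10.94 and 10.90 in GRHL2 samples. The groups did not overlap, but the log2 fold change of 0.18 (adjusted p = 0.0329, limma) was no longer called when any one of 6 samples was left out (control replicates 2, 3 and 4 and GRHL2 replicates 1, 2 and 3), with adjusted p-values up to 0.0871. Ei24, whose groups did not overlap, and Phlda1 were not called, with log2 fold changes of -0.11 (95% interval -0.21 to -0.0083) and 0.13 (-0.074 to 0.33), and 33.0% of the exonic bases of Phlda1 are shared with a gene on the opposite strand.

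**Figure D3:**
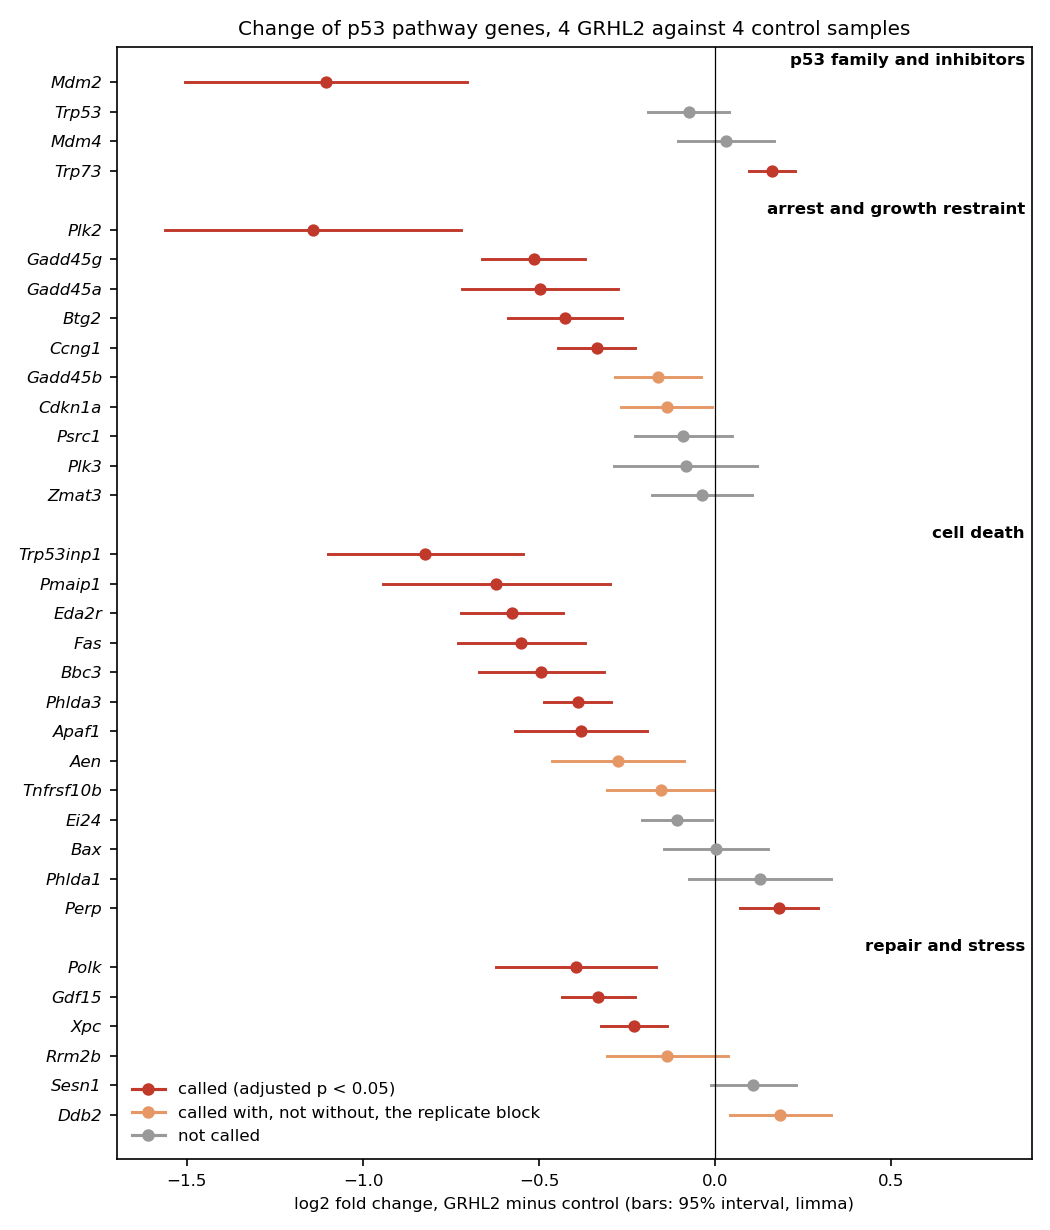
Log2 fold change of each p53 pathway gene, GRHL2 minus control, with its 95% interval from limma (4 samples against 4); colour shows whether the gene was called, called with the replicate number as a block but not without it, or called in neither fit. The intervals of Mdm2 (-1.51 to -0.71) and Plk2 (-1.56 to -0.72) lie apart from those of Trp53 (-0.19 to 0.041) and Bax (-0.14 to 0.15).

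Of the 6 genes of repair and stress, 3 were called lower and none higher by limma (5.91% and 10.5% of all genes), while Ddb2 was the 1 gene higher at an unadjusted p under 0.05 (18.4% of all genes). Xpc and Polk serve DNA repair, the first as the sensor of nucleotide excision repair and the second as a translesion polymerase. Xpc was at 7.59, 7.54, 7.51 and 7.51 in control samples and at 7.34, 7.28, 7.29 and 7.32 in GRHL2 samples. Polk was at 9.57, 9.90, 9.41 and 9.42 in control samples and at 9.23, 9.25, 9.17 and 9.06 in GRHL2 samples. The groups were apart in both, with log2 fold changes of -0.23 (adjusted p = 0.00528, limma) and -0.40 (adjusted p = 0.0262). For Polk the adjusted p rose to between 0.0505 and 0.0685 without control replicate 1 or without GRHL2 replicate 1, 3 or 4. Ddb2, the partner of XPC in sensing ultraviolet damage, was at 5.17, 5.14, 5.33 and 5.29 in control samples and at 5.40, 5.26, 5.50 and 5.51 in GRHL2 samples. It was thus higher rather than lower in each same-numbered pair, by 0.19 on average (limma adjusted p = 0.0782, or 0.00553 with the replicate block), and 23.8% of its exonic bases are shared with Acp2 on the opposite strand. Rrm2b, the p53-inducible subunit of ribonucleotide reductase, was at 8.68, 8.93, 8.60 and 8.60 in control samples and at 8.53, 8.68, 8.51 and 8.55 in GRHL2 samples, with overlapping groups. Its log2 fold change of -0.14 had an adjusted p of 0.268 (limma), or 0.0377 with the replicate block. Gdf15, a secreted stress cytokine of the TGF-beta superfamily, was at 6.53, 6.37, 6.48 and 6.53 in control samples and at 6.14, 6.12, 6.18 and 6.15 in GRHL2 samples, or 0.794 of the control level (adjusted p = 0.00140, limma). Sesn1, which restrains mTORC1 when p53 is active, had a log2 fold change of 0.11 (95% interval -0.013 to 0.23) and was not called.

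In every one of replicates 1, 2, 3 and 4, 26 of the 33 genes were lower in the GRHL2 sample than in the control sample, with median differences of -0.23, -0.25, -0.24 and -0.20, where 48.3%, 46.7%, 45.5% and 45.9% of all genes were lower. In 23 genes all 4 pairs showed a lower GRHL2 sample, in 5 all 4 showed a higher one, and 5 were mixed, where 21.3% of all genes were lower and 27.3% higher in all 4 pairs. Samples 1 and 2 of both groups deviated from the group means together, as did samples 3 and 4. Within replicates 1 and 2, 26 genes were lower on average, with a median difference of -0.26, and within replicates 3 and 4 it was 27 genes and -0.22. With a term for these sets, an alternative chosen after seeing the data, 20 genes were called lower and 3 higher (13.3% and 17.5% of all genes). Replicate 2 stood out in size: 13 of the 16 lowered genes had their widest fall in that pair, and 12 of the 16 had their highest control value in control replicate 2. Of all 33 genes, 18 had their highest control value there, and the share over all genes of the table was not counted. Without control replicate 2, 17 genes were called lower and 1 higher (4.57% and 8.28% of all genes). Once replicate numbers entered the model as a block, 24 genes were called, 21 lower and 3 higher, where 13.9% of all genes were lower, 18.2% higher and 32.1% either. These 24 included the 18 called without the block. The genes added by the block were Cdkn1a, Gadd45b, Tnfrsf10b, Aen and Rrm2b on the lower side and Ddb2 on the higher side.

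Members were abundant genes as a whole: 30 of the 33 had a control level above the median of the table. Ccng1, Plk2, Cdkn1a, Mdm2 and Bax led, with control means of 13.05 ± 0.095, 12.92 ± 0.37, 12.90 ± 0.051, 12.29 ± 0.37 and 11.71 ± 0.12 (SD, n = 4 each). The mean of Plk2 was closer to those of Ccng1 and Cdkn1a than its own SD. In GRHL2 samples Cdkn1a (12.76 ± 0.12) and Ccng1 (12.72 ± 0.024) led and did not differ beyond their spread. Plk2 (11.78 ± 0.30) was then level with Bax (11.71 ± 0.074) within its spread, and Mdm2 (11.18 ± 0.26) and Trp53 (11.43 ± 0.083) did not differ beyond the spread of Mdm2.

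Other genes of the pathway were listed apart from the members. Of 25 further p53 targets, 17 were not called, 5 were called lower and 3 higher (5.91% and 10.5% of all genes), the higher share being near that of all genes, with a median log2 fold change of -0.013. The lowered genes were Sesn2 (-0.49), an mTORC1 inhibitor that ATF4 also induces, Ercc5 (-0.38), the XPG nuclease of excision repair, Pidd1 (-0.27), the scaffold of the PIDDosome, Triap1 (-0.24) and Rps27l (-0.20), with adjusted p-values from 0.00108 to 0.0225 (limma). Sfn, which encodes the epithelial protein 14-3-3 sigma, rose from 6.20 ± 0.12 to 6.98 ± 0.072 (SD, n = 4 each), a log2 fold change of 0.78 (adjusted p = 0.000131, limma), and Cd82 (0.30) and Dram1 (0.19) were also called higher. Cd82 had overlapping groups and an adjusted p of 0.0499 (limma), and Dram1 was at a control level of only 2.81. The 3 higher calls became 2 without control replicate 1, 2 or 3 or GRHL2 replicate 2, 3 or 4. With the replicate block, 8 of these 25 genes were called lower and 5 higher (13.9% and 18.2% of all genes). Among them Ppm1d, which encodes the phosphatase WIP1 that switches p53 signalling off, had a value of -0.22 (limma adjusted p = 0.172, or 0.00179 with the block).

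Of 21 genes that modify or assist p53, 3 were called lower and 2 higher (5.91% and 10.5% of all genes), the higher share being near that of all genes. Ep300 (-0.30) and Kat5 (-0.19), acetyltransferases that act on p53, and Rchy1 (-0.29), a ubiquitin ligase that degrades it, were lower, whereas Ppp1r13b (0.29) and Ppp1r13l (0.32), which encode the activator ASPP1 and the inhibitor iASPP, were higher (adjusted p from 0.00350 to 0.0324, limma). The damage kinase genes Atm (0.0075) and Atr (-0.10) were not called. The 3 lower calls fell to 1 when control replicate 1 or GRHL2 replicate 1, 3 or 4 was left out, and with the replicate block there were 7 lower and 3 higher (13.9% and 18.2% of all genes). Of 22 genes of the common apoptosis machinery, 3 were called higher, a share near that of all genes, among them Bcl2l11 (0.36), which encodes the BH3-only protein BIM, and Hrk (0.084, at the lower end of the table), and none was called lower by limma. At an unadjusted p under 0.05, 7 were higher and 1 lower, where 18.4% and 12.7% of all genes were. With the replicate block 7 were higher and 1, Birc2, lower (18.2% and 13.9% of all genes). Of 20 cell cycle genes that p53 holds down by way of p21, 1 was called, where 16.4% of all genes were in either direction. It was Top2a, with a log2 fold change of 0.16 (adjusted p = 0.0329, limma). At an unadjusted p under 0.05, 3 of the 20 were higher, a share near that of all genes, and 0 lower. The Top2a call was lost without control replicate 2, 3 or 4 or GRHL2 replicate 1 or 4, and the block gave 4 higher and 2 lower (18.2% and 13.9% of all genes).

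Genes of the integrated stress response, in which the factors ATF4 and CHOP act, are given beside these results because ATF4 or CHOP are known to induce Gadd45a, Pmaip1, Bbc3, Tnfrsf10b and Gdf15 as well. Of 16 such genes, 11 were called lower and none higher (5.91% and 10.5% of all genes), or 14 lower and none higher with the replicate block (13.9% and 18.2%), with a median log2 fold change of -0.39. Ppp1r15a (-1.45), Ddit3 (-1.24), Slc7a11 (-0.75) and Trib3 (-0.72) changed the most, with adjusted p-values from 2.90e-05 to 0.000992 (limma), and none of the 16 had a log2 fold change above 0. The summed linear level of the 16 genes was 22592 to 23699 in control samples and 17988 to 19594 in GRHL2 samples, and that of the 33 p53 pathway genes 50674 to 62704 and 40214 to 44074. The part of the stress response in the change of the p53 pathway genes was not tested. Sesn2 and Ddit4 stand in both this list and that of further p53 targets.

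**Figure D4:**
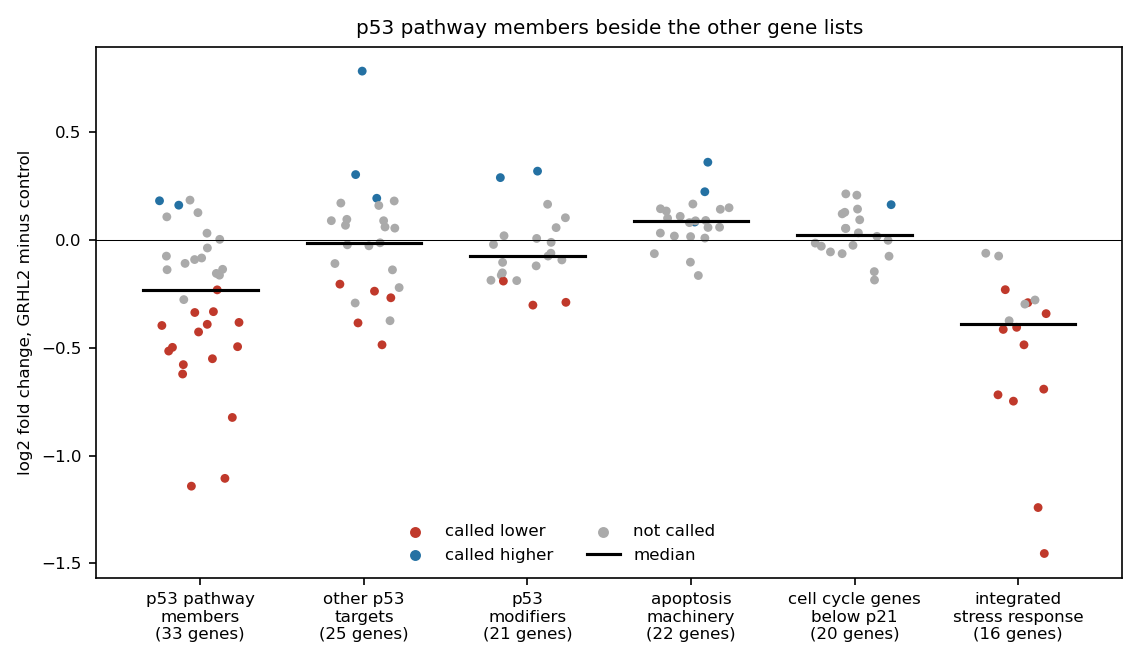
Log2 fold change, GRHL2 minus control, of the 33 p53 pathway genes and of 5 other gene lists, one point a gene, coloured by limma call, with a black bar at each list's median. The medians were -0.23 for the p53 pathway genes, -0.013 for other p53 targets and -0.39 for the integrated stress response.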

How the data were processed

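The tests used 8 libraries of BMEL cells, 4 per plasmid. The table deposited by the authors is named for FPKM, but its values span -2.85 to 18.01, with 7190 of them negative, and were therefore read as log2 values. In the methods, alignment by the authors used Hisat2 on mm10, HTSeq counting of exons ignored strand, genes with few reads were removed, and DESeq2 rlog values were divided by transcript lengths. HISAT2 2.2.1, HTSeq 0.9.1 and DESeq2 1.40.2 are named in the submitters' processing notes. Since the methods open this account with public data, its application to these samples is an assumption. Depth being unknown, no interval for counting error is given.

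Values were tested as deposited, without pseudocount or filter, by limma 3.58.1 in R 4.3.3 (trended empirical Bayes, adjustment after Benjamini-Hochberg over 18671 genes, threshold 0.05), after a check on simulated data. The main fit did not use the replicate numbers in the labels. In the block alternative they were taken to pair the samples, since deviations from the group means correlated at 0.474 to 0.645 (Pearson's r across genes) in all 4 same-numbered pairs. Pairs with different numbers correlated at 0.344 to 0.602 within replicates 1 and 2 or 3 and 4, and at -0.611 to -0.399 across these sets, so the numbers are not told apart from the sets. Positions are from GENCODE M21 (GRCm38), and promoter sequences from RefSeq (GRCm38.p6). All members in the table are named, with every sample's value for those called with or without the block, and up to 4 called genes per direction from each other list, by size; 1 such gene is not reported here. Ppm1d, Atm, Atr, Birc2, Bax, Trp53 and Rps27l (values beyond that rule) and the marker genes given as levels were added after their values were seen. Members and gene lists were chosen with earlier results of these data known. Alternatives were the replicate block, an equal upper quartile, an equal sum, no trend, log2 of the linear value plus 1, a mean of at least 0, each sample left out and, added after seeing the data, a term for these sets.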

Additional observations from a re-analysis of the deposited data

Results flagged for a closer look

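By Dixon's criterion, 2 of 66 groups (the 33 p53 pathway genes in either plasmid group of 4) held a sample set apart from its neighbours, and about 1 in 20 groups would do so by chance. Both were control replicate 2. Zmat3 was at 9.39 there, with the next control sample at 9.18, and Bbc3 was at 9.66, with the next at 9.33. When that library was left out, Bbc3 had a log2 fold change of -0.41, against -0.49 with all samples, and its adjusted p (limma) was 0.000761; over the 15 alternatives it ran from 0.000585 to 0.0102. Zmat3 was not called under any alternative, and its log2 fold change became 0.019 without that sample.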

How the results depend on the processing

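Under the 7 alternatives that kept all samples, 16 to 21 of the 33 p53 pathway genes were called lower and 2 or 3 higher. With the replicate block the numbers were 21 and 3, and 3396 genes of the table were called higher and 2589 lower, against 1957 and 1104 without it. The term for replicates 1 and 2 against 3 and 4, chosen after seeing the data, gave 3270 higher and 2478 lower, and called the same genes among the members as the block except Rrm2b. With an equal upper quartile 3064 genes were higher and 972 lower, and higher genes made up 75.9% of calls (77.0% with an equal sum) against 63.9%, while the p53 pathway genes had 16 lower calls under both. The median log2 fold change of all genes moved from 0.0066 to 0.029 and 0.031. Leaving out single samples gave 15 to 17 lower and 1 to 2 higher calls among the members, and between 690 (without GRHL2 replicate 3) and 1036 lower and 1326 to 1848 higher calls among all genes. Of the 16 lowered genes, 15 were called under all 15 alternatives, Polk being the exception. Trp73 was called under all 15 and Perp under 9. Calls were gained by Aen without control replicate 3 or 4, with log2 of the linear value plus 1 and with the filter (adjusted p 0.0407 to 0.0487, limma), by Gadd45b without control replicate 2 (0.0452), and by Ddb2 without GRHL2 replicate 2 (0.0233) and with an equal upper quartile (0.0461). No call changed sign. Besides the 6 genes named in the report, the block changed no call of a member. Whether values near the lower end, such as those of Trp73, were shrunk was not tested.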
